A study of Mus musculus with 224 samples.

Results

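Genes marking macrophages and their inflammatory signalling were followed through 3 tissues, the liver, the soleus muscle and visceral fat, in 3 inbred mouse strains. A list of 36 symbols was matched by Ensembl identifier to the 3 deposited tables of normalised expression, and all 36 occurred in at least 1 table, among 17494 genes in all. Of these, 28 were measured in liver, 27 in soleus and 35 in adipose tissue, and 23 in all of them. The strains were C57BL/6J, DBA/2J and BALB/cJ, inbred lines for which the labels give no transgene or mutation. Animals ate regular chow (RC) or a high-fat diet (HFD) and were sampled after 5, 13 or 33 days according to the sample labels, whose last day differs from the series' own design text. Strain, diet and day together gave 18 groups with 4 animals in each, and the same animals gave the 3 tissues. The sources used here give neither the age of the animals nor the composition of the diets. Of 216 libraries with values, 214 were used. Both adipose libraries left out, from BALB/cJ animals on HFD, carried pancreatic islet markers.

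Macrophages settle in tissues before birth or arrive later as blood monocytes, and both kinds depend on signalling through the CSF1 receptor and on the transcription factor PU.1, encoded by Spi1. Liver macrophages (Kupffer cells) clear particles and lipoproteins from portal blood through scavenger and complement receptors such as Marco, Cd163 and Vsig4, and carry the lectin Clec4f. Adipose macrophages are best known in obesity, where monocytes follow the chemokine CCL2 through its receptor CCR2 and where cells with Trem2, Cd9 and Lgals3 take up lipid around dying adipocytes.

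Depth was 1.81e+07 to 3.20e+07 reads a library in liver, 1.99e+07 to 3.34e+07 in soleus and 1.98e+07 to 4.68e+07 in adipose tissue. Values are log2 CPM, the base 2 logarithm of counts scaled to a common library size, and a log2 difference of 1 is a 2-fold ratio. A gene was tested when it reached a log2 CPM of 0 in at least 4 libraries, which all members in a table did. Members outside a table were not analysed in that tissue, which is not a level of 0. For liver these were Itgam, Clec10a, Trem2, Itgax, Mmp12, Ccl2, Tnf and Nlrp3. For soleus they were Vsig4, Cd5l, Itgax, Mmp12, Fcgr1, Ccl2, Il1b, Tnf and Nlrp3, and for adipose tissue Clec4f. All tests are limma on these values with Benjamini-Hochberg adjustment over every tested gene of the tissue, and a member was called at an adjusted p under 0.05. In tissue extracts, fewer macrophages and less of a transcript per macrophage cannot be told apart. Reads of all strains were aligned to GRCm38, which is built on C57BL/6J, so that sequence variants of the other strains can affect their values. Exons of Itgam (chromosome 7, 128062640 to 128118491, GRCm38) share 68.7% of their bases with Gm49368 on the same strand, and 15.1% of those of Csf1r and 10.7% of those of Cd9 lie opposite another gene. Whether counting used strand is not given in the sources used here, so these 3 genes are uncertain.

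The level of each member was first compared per kilobase of exon within a tissue. The tables were normalised separately, so no test was made between tissues. Lyz2, the lysozyme of macrophages, led in every tissue, with a mean of 4.20 log2 CPM per kilobase in liver, 4.97 in soleus and 9.28 in adipose tissue. Liver was marked by Clec4f, a lectin of Kupffer cells, at 4.09, by the pore-forming protein Mpeg1 at 3.90 and by Cd5l, a secreted Kupffer cell protein, at 3.80. Soleus ranked Cd9, a tetraspanin also made outside the macrophage lineage, at 4.52 and the lysosomal protease Ctss at 2.22. In adipose tissue Ctss (6.69) and Tyrobp, the signalling adaptor of TREM2 (5.78), followed Lyz2. The lowest members per kilobase were Ccr2 in liver (-3.33), Clec4f in soleus (-3.79) and the inflammasome sensor Nlrp3 in adipose tissue (-1.53). Most neighbours in these orders lay closer to each other than the larger of their SDs over libraries. The exceptions were Lyz2 above Ctss in adipose tissue, Cd9 above Ctss in soleus and Tlr2 above Cx3cr1 in liver.

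**Figure D1:**
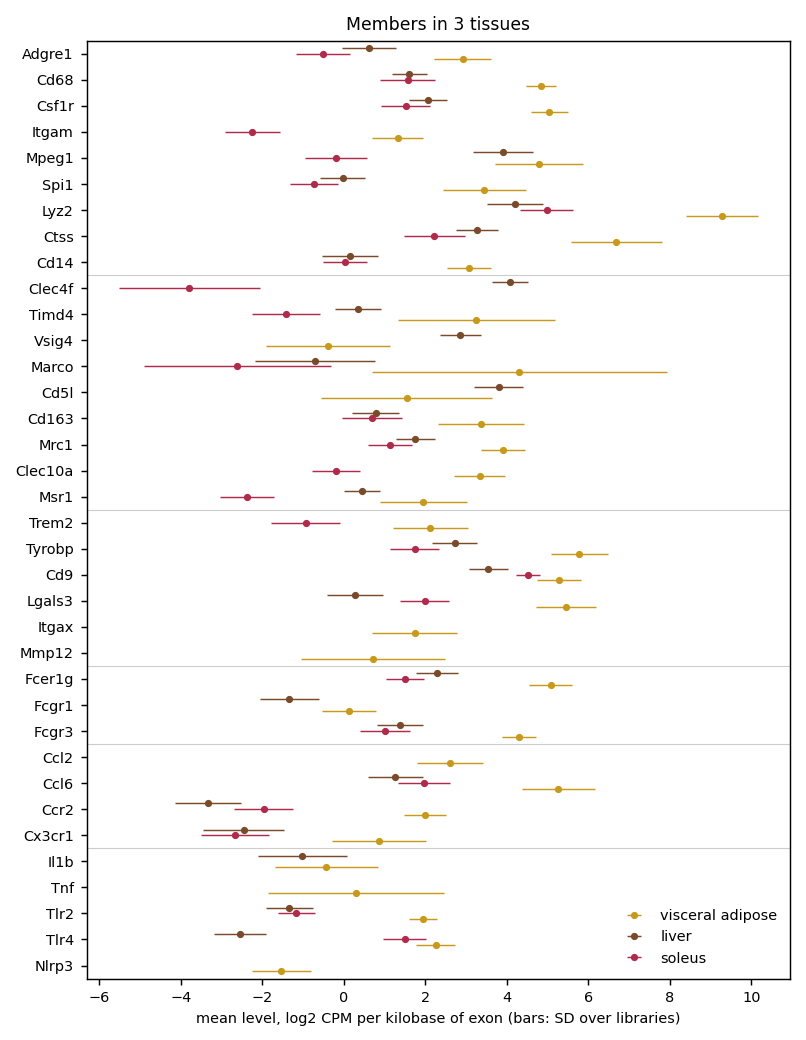
Mean level of each member in log2 CPM per kilobase of exon in liver, soleus and visceral adipose tissue, with bars for the SD over libraries and rules between role groups (general macrophage, resident, lipid-associated, Fc receptor, chemokine, cytokine and sensor). Lyz2 is highest in all 3 tissues at 4.20, 4.97 and 9.28, and Clec4f stands at 4.09 in liver against -3.79 in soleus. Among adipose members the bars of Marco, Tnf and Cd5l are the widest.

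In liver, whether HFD changes members was asked over all strains and days together. Of 28 members, 2 rose and 0 fell, where 21.2% of all tested genes changed, and the median difference of the members was 0.06 against 0.01 for all genes. Ccr2, the monocyte chemokine receptor, stood at -2.28 to 0.42 on RC (median -0.89, n = 36) and at -1.91 to 3.12 on HFD (median -0.35, n = 36). The diets overlapped widely, and the highest value was 1 C57BL/6J animal on day 5 (1HF225), whose liver was also the highest for Csf1r at 6.15. Ccr2 rose by 0.53 ± 0.17 (SE, adjusted p = 0.0200), and the call held when any 1 library was left out, with differences of 0.43 to 0.58. It rests on few reads, between 5 and 247 a library with a median of 15.

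Cd5l moved from a median of 4.79 on RC (3.57 to 5.58, n = 36) to 4.86 on HFD (3.99 to 6.97, n = 36), with almost complete overlap. Its difference of 0.28 ± 0.10 (adjusted p = 0.0410) lost its call in 22 of 72 fits that left out 1 library, animal 1HF225 among them, with adjusted p up to 0.0673. The usual gauges of macrophage content showed smaller differences that did not pass. Adgre1, a classic surface marker of mouse macrophages, differed by 0.22 ± 0.11 (adjusted p = 0.171), the lysosomal marker Cd68 by 0.02 ± 0.09 (0.917), the CSF1 receptor gene Csf1r by 0.03 ± 0.10 (0.867) and the cytokine gene Il1b by 0.15 ± 0.22 (0.683). Clec4f was at 4.32 to 6.07 on RC (median 5.35, n = 36) and at 4.30 to 6.91 on HFD (median 5.40, n = 36), a difference of 0.03 ± 0.09 (adjusted p = 0.850).

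Other genes of the macrophage and of inflammatory signalling were taken from lists that hold no member. Of 42 further macrophage genes in liver, 2 rose and 5 fell with HFD, where 21.2% of all tested genes changed. Of 26 genes of inflammatory signalling 3 rose and 2 fell. Csf2rb, the shared receptor chain for GM-CSF, rose by 0.55 ± 0.09 (adjusted p = 1.32e-05) and Il1rn, the natural blocker of the IL-1 receptor, by 0.93 ± 0.17 (4.67e-05). The lysosomal protease gene Ctsd fell by 0.16 (adjusted p = 4.49e-05), the proton pump subunit gene Atp6v0d2 by 1.05 (0.00161), the transcription factor gene Irf5 by 0.42 (0.00198), the chemokine gene Ccl9 by 0.40 (9.66e-05) and the arginase gene Arg1, also an enzyme of the hepatocyte urea cycle, by 0.34 (2.37e-05).

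Liver responses differed between strains for 3 of 28 members by the F test on the strain-by-diet terms, where 15.7% of all genes did. Mpeg1 had the smallest p. In C57BL/6J it stood at 4.40 to 5.53 on RC (median 5.15, n = 12) and at 4.79 to 6.84 on HFD (median 5.66, n = 12). In DBA/2J it was at 5.61 to 6.49 on RC (median 6.12) and at 4.69 to 6.44 on HFD (median 5.34). So it rose by 0.60 ± 0.13 (adjusted p = 0.00301) in C57BL/6J and fell by 0.60 (SE 0.13, adjusted p = 0.000486) in DBA/2J. BALB/cJ, already the highest on RC at 6.17 to 7.19 (median 6.85), stood at 5.93 to 7.42 on HFD (median 6.70). The test of the difference between strains gave an adjusted p of 2.43e-05. In DBA/2J the fall was seen on day 5, when the RC animals were at 6.11, 6.15, 6.32 and 6.22 and the HFD animals at 5.24, 5.27, 4.69 and 5.20. It recurred on day 33, at 6.40, 5.88, 5.96 and 6.14 against 5.41, 5.14, 5.04 and 5.42. On both days the diets did not overlap, with differences of -1.10 (adjusted p = 0.000740) and -0.84 (adjusted p = 0.00629). On day 13 the medians were 6.02 on RC and 6.17 on HFD, and the ranges overlapped. All DBA/2J animals of days 5 and 33 carried lower animal numbers than those of day 13. Day 13 and the range of animal numbers therefore cannot be told apart here.

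Cd9 differed with diet in the other direction among strains. Its median in DBA/2J was 3.71 on RC (3.47 to 4.18, n = 12) and 4.25 on HFD (3.80 to 4.79, n = 12), in BALB/cJ 3.50 (2.25 to 4.34) and 3.89 (3.39 to 4.58), and in C57BL/6J 4.08 (3.48 to 4.58) and 3.75 (2.51 to 4.30). It rose by 0.48 ± 0.14 in DBA/2J (adjusted p = 0.0101) and by 0.41 ± 0.14 in BALB/cJ (adjusted p = 0.0411), and the strains differed in this (adjusted p = 0.00160). Ccl6, a chemokine of resting macrophages, also differed between strains in its response (adjusted p = 0.0273). In BALB/cJ on day 33 it was at 1.92, 2.85, 2.57 and 1.64 on RC and at 0.53, 0.87, 0.20 and 1.12 on HFD, with no overlap, a fall of 1.56 ± 0.36 (adjusted p = 0.00333).

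Within single strains 4 of 28 liver members were called in at least 1 strain, beside 32.4% of all genes. Besides Mpeg1 and Cd9 these were Cd163, the haemoglobin scavenger receptor, and Ccr2, both in BALB/cJ. Cd163 had a median of 3.34 on RC (2.48 to 3.87, n = 12) and 2.55 on HFD (1.47 to 4.25, n = 12) and fell by 0.65 (adjusted p = 0.0236), while Ccr2 rose by 0.84 ± 0.30 (adjusted p = 0.0467). Over the 28 members the median diet difference was 0.30 for C57BL/6J, 0.05 for DBA/2J and -0.13 for BALB/cJ, while the medians of all genes were at most 0.01. In C57BL/6J 26 of 28 differences were above 0, although only Mpeg1 was called. Members varied together across livers (median r 0.54 with group means subtracted), so these signs are not independent. By day the C57BL/6J medians were 0.70 on day 5, 0.06 on day 13 and 0.10 on day 33, and those of DBA/2J were -0.26, 0.19 and 0.28. The C57BL/6J liver 1HF225 on HFD day 5 was at 8.71 in summed general macrophage level. The others of its group were at 7.01 to 7.59, and C57BL/6J livers on RC that day at 6.30 to 7.42. The part of 1HF225 in these medians was not tested. One BALB/cJ liver on HFD day 5 (animal 3HF224) stood high for many members, at 3.02 for Ccl6 and 4.25 for Cd163. Without it the F test called 10 members in place of 3 and the fits within strains called 7 in place of 4. Leaving out 3HF201, 3HF203, 3HF230, 3HF258, 3RC209 or 3RC255 instead gave 2 within strains, and leaving out 1HF227, 1HF250, 1RC226, 3HF203, 3HF252 or 3RC259 gave 5 by the F test. The share of all genes called in these refits is not given here, so their counts have no background beside them.

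By day, 1 of 28 liver members was called on at least 1 of the 3 days, where 20.3% of genes were. This was Ccr2 on day 5, with a rise of 0.93 ± 0.30 (adjusted p = 0.0449), and limma with voom weights on the recovered reads called 0. As single libraries were left out the count was 0 to 2. In at least 1 of the 9 combinations of strain and day 5 members were called (background 33.9%): Mpeg1, Cd9, Ccl6, Cd163 and the endotoxin co-receptor gene Cd14. Cd163 and Cd14 fell in BALB/cJ on day 33, by 1.08 (adjusted p = 0.0415) and 1.17 (adjusted p = 0.0480). The count was 11 without animal 3HF224 and 3 without any 1 of 3HF208, 3HF258, 3RC208, 3RC209 and 3RC211. The diet difference varied with day for 0 of 28 members, and 0 had an unadjusted p under 0.05 and 0 were called with voom, where 3.35% of genes were called. Between day 33 and day 5 within a diet 1 member was called (background 5.93%), Mpeg1, which fell by 0.46 (adjusted p = 0.0251) on HFD. That call was lost without animal 1HF209 or 3HF201.

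Livers of animals on RC were then compared between strains. Each pair shares animals with the other pairs. From C57BL/6J to DBA/2J 2 members were higher and 6 lower, where 23.9% of all genes were higher and 24.2% lower. In BALB/cJ against C57BL/6J 3 were higher and 8 lower (background 22.9% and 23.9%), and in BALB/cJ against DBA/2J 5 were higher and 3 lower (20.6% and 21.5%). The shares of members are thus near or below those of genes at large. Mpeg1 was higher by 0.93 ± 0.13 in DBA/2J (adjusted p = 1.98e-08) and by 1.65 ± 0.13 in BALB/cJ (1.07e-16), both against C57BL/6J, with no overlap between the RC animals of C57BL/6J and either strain. BALB/cJ exceeded DBA/2J by 0.72 ± 0.13 (adjusted p = 7.70e-06).

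Marco, a scavenger receptor that binds bacteria, had the opposite order. It was at 0.45 to 2.79 in C57BL/6J on RC (median 2.03, n = 12), at -1.49 to 1.55 in DBA/2J (median -0.33) and at -1.80 to 0.69 in BALB/cJ (median -0.51). DBA/2J was lower by 1.94 (log2 difference -1.94 ± 0.39, adjusted p = 2.97e-05) and BALB/cJ by 2.32 (-2.32 ± 0.39, 1.04e-06). Cx3cr1, the fractalkine receptor of monocytes, was lowest where Marco was highest, with a median of -1.21 in C57BL/6J (-2.50 to -0.36), -0.05 in DBA/2J (-1.45 to 0.63) and 0.64 in BALB/cJ (-1.80 to 2.00). The differences from C57BL/6J were 1.01 ± 0.26 (adjusted p = 0.00115) and 1.68 ± 0.26 (3.06e-07). Reads were 1 to 700 a liver library for Marco (median 22.5) and 4 to 90 for Cx3cr1 (median 18). Adgre1 was lower in both strains, by 0.63 in DBA/2J (log2 difference -0.63 ± 0.20, adjusted p = 0.00618) and by 0.76 in BALB/cJ (-0.76 ± 0.20, 0.00111). Its medians were 2.75 (1.66 to 3.53), 2.11 (1.14 to 2.56) and 1.88 (1.48 to 2.32).

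Il1b was lower in DBA/2J livers than in the other strains, on 1 to 128 reads a library (median 18). It stood at -2.84 to 0.17 there (median -1.98, n = 12), at -1.47 to 2.38 in C57BL/6J (median -0.37) and at -1.14 to 0.34 in BALB/cJ (median -0.33). DBA/2J against C57BL/6J gave -1.34 ± 0.38 (adjusted p = 0.00298) and BALB/cJ against DBA/2J gave 1.26 ± 0.38 (0.00605). The lipopolysaccharide sensor genes Tlr4 and Cd14 were also higher in BALB/cJ than in DBA/2J, each by 0.75 (adjusted p = 0.0130 and 0.00629). Cd5l was lower in BALB/cJ than in either strain, by 0.65 against C57BL/6J (log2 difference -0.65 ± 0.18, adjusted p = 0.00195) and by 0.64 against DBA/2J (-0.64 ± 0.18, 0.00256). The Fc receptor genes Fcer1g (-0.61) and Fcgr1 (-0.73) were lower in BALB/cJ than in C57BL/6J livers, and Fcgr1 was lower in DBA/2J as well (-0.73). Mrc1, the mannose receptor gene, was lower in both by 0.42 and 0.49 (log2 differences -0.42 and -0.49). Remaining calls were Ctss in DBA/2J (-0.47) and Cd9 (-0.52), Lyz2 (-0.59) and Cd163 (0.58) in BALB/cJ, all against C57BL/6J, and Lyz2 (-0.67), Fcer1g (-0.40) and Cx3cr1 (0.67) in BALB/cJ against DBA/2J. Fibroblast markers moved with the strain too. In BALB/cJ 4 of 6 exceeded their level in C57BL/6J and 5 of 6 that in DBA/2J, with summed levels of 7.26 to 8.02 in BALB/cJ, 6.46 to 7.58 in C57BL/6J and 6.65 to 8.27 in DBA/2J. Their part in these results was not tested.

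**Figure D2:**
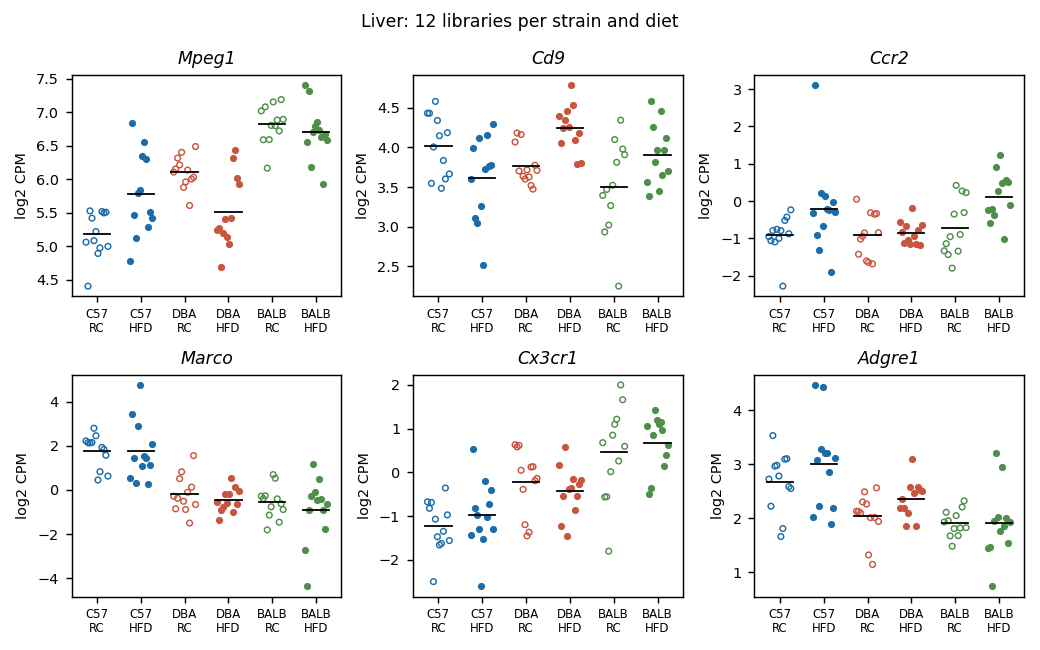
Liver log2 CPM of 6 members by strain and diet, with 12 libraries a column, open circles for RC, filled circles for HFD and a line at the mean. Mpeg1 moves up on HFD in C57BL/6J (median 5.15 to 5.66) and down in DBA/2J (6.12 to 5.34). Marco and Adgre1 are highest and Cx3cr1 is lowest in C57BL/6J.

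In soleus the same diet comparison called 0 of 27 members over all strains and days, with 2 at an unadjusted p under 0.05 and 0 called with voom, where 17.4% of all genes changed. The median difference was 0.00, as it was over all genes. Adgre1 was at -0.55 to 3.33 on RC (median 1.29, n = 36) and at -0.27 to 2.34 on HFD (median 1.22, n = 36). The ranges lay over each other, and the difference was 0.02 ± 0.14 (adjusted p = 0.929). Differences were also small for Cd68 (0.01 ± 0.12, adjusted p = 0.966), Csf1r (-0.06 ± 0.12, 0.768) and Trem2, the lipid-sensing receptor (-0.08 ± 0.17, 0.781). With 1 library left out the count was 2 without animal 2RC211 and 1 without any of 10 others, among them 1RC226.

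Soleus within strains gave calls for 2 of 27 members (background 22.4%). Tlr2, a receptor for bacterial lipopeptides, was at -0.02 to 1.13 in DBA/2J on RC (median 0.62, n = 12) and at -0.64 to 0.53 on HFD (median -0.01, n = 12), and fell by 0.57 (log2 difference -0.57 ± 0.16, adjusted p = 0.0178). Marco in BALB/cJ was at -3.74 to 2.32 on RC (median -3.74, the value of 0 reads, n = 12) and at -3.74 to 3.65 on HFD (median 0.44, n = 12), and rose by 2.46 ± 0.83 (adjusted p = 0.0417). It was at 0 reads in 25 of the 72 soleus libraries, and across them it followed the summed B cell markers with r = 0.91 (n = 72). Those markers share the same libraries and depth, and 7 of 10 of them rose with HFD in soleus. Their part in the Marco result was not tested. Leaving out 2HF208, 3HF201, 3HF202, 3HF203, 3HF252, 3HF254, 3HF258, 3HF259, 3RC201, 3RC202, 3RC208, 3RC209, 3RC211, 3RC228, 3RC230, 3RC251 or 3RC255 left 1 member called within strains, and leaving out 3HF224 gave 4. By day 0 of 27 members were called, with 6 at an unadjusted p under 0.05 and 0 with voom (background 19.9%). In the 9 combinations 1 was called (background 16.9%), Lgals3, the gene of galectin-3. In BALB/cJ on day 33 it was at 3.63, 3.97, 3.91 and 2.77 on RC and at 2.16, 2.77, 2.43 and 2.91 on HFD, with 1 RC animal inside the HFD range, a fall of 1.0 (log2 difference -1.0 ± 0.30, adjusted p = 0.0470). The count in combinations ranged from 0 to 3 as single libraries were left out.

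Interaction tests in soleus called 0 of 27 members between strains, with 2 at an unadjusted p under 0.05 and 0 with voom (background 9.83%), and 0 between days, with 1 at an unadjusted p under 0.05 and 0 with voom (background 0.99%). Between day 33 and day 5 on HFD Tlr2 was higher by 0.50 (adjusted p = 0.0351), the 1 member called in either diet (background 14.6%), and the count was 0 to 2 as single libraries were left out. With HFD 17.4% of all soleus genes changed. Of 42 other macrophage genes 3 rose and 1 fell, and of 31 genes of inflammatory signalling 5 rose and 1 fell. These included the lipid droplet protein gene Plin2 (0.29 ± 0.06, adjusted p = 0.00102), Gpnmb, a lysosomal glycoprotein gene (0.40 ± 0.10, 0.00368), the transcription factor gene Irf8 (0.36, 0.0297), the endothelial chemokine gene Cx3cl1 (0.48 ± 0.10, 0.000856), the interferon-induced chemokine gene Cxcl9 (0.54, 0.00557), the NF-kB inhibitor gene Nfkbia (-0.21, 0.0122) and the Toll-like receptor adaptor gene Myd88 (0.14, 0.0233). Beside them 4 of 9 adipocyte markers and 4 of 6 endothelial markers rose, while 5 of 8 myofibre markers and 4 of 4 erythroid markers fell, and their part in these differences was not tested.

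More members were called between strains than between diets in soleus. BALB/cJ on RC exceeded C57BL/6J in 13 of 27 members and was lower in 1, where 21.2% of genes were higher and 23.3% lower, and the median member difference was 0.39 against -0.02 for all genes. Against DBA/2J, BALB/cJ was higher in 15 and lower in 1 (background 19.8% and 20.6%), with a median of 0.53 against -0.01. DBA/2J against C57BL/6J had 0 members higher and 4 lower (background 17.6% and 19.4%). BALB/cJ takes part in both larger comparisons, so they share its 12 animals. Higher members came from most role groups: 5 of 9 general macrophage genes and 3 of 4 lipid-associated genes against C57BL/6J, and 6 of 9 and 4 of 4 against DBA/2J.

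Among scavenger receptors, Cd163 was at 3.20 to 4.28 in BALB/cJ (median 3.72, n = 12), at 1.27 to 3.83 in C57BL/6J (median 2.71) and at 1.34 to 3.51 in DBA/2J (median 2.62). BALB/cJ animals occupied the upper end of both other ranges, with differences of 1.09 ± 0.21 (adjusted p = 2.59e-05) and 1.23 ± 0.21 (3.55e-06). Lgals3 was at 2.26 to 3.97 in BALB/cJ (median 3.32), at 1.30 to 3.45 in C57BL/6J (median 2.08) and at 2.14 to 3.16 in DBA/2J (median 2.46). It was higher in BALB/cJ by 1.07 ± 0.18 (adjusted p = 1.03e-06) and 0.65 ± 0.18 (0.00226). Cd68 stood at 1.87 to 2.89 (median 2.46) against -0.30 to 3.16 (median 1.64) and 0.68 to 2.37 (median 1.82), which gave 0.85 ± 0.22 (adjusted p = 0.00105) over C57BL/6J and 0.81 ± 0.22 (0.00195) over DBA/2J. The highest C57BL/6J soleus, animal 1RC226 on day 5, lay above every BALB/cJ animal for Cd68.

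Lyz2 was at 5.60 to 6.64 in BALB/cJ (median 5.95), at 4.30 to 6.80 in C57BL/6J (median 5.17) and at 4.18 to 5.77 in DBA/2J (median 4.83). It was higher in BALB/cJ by 0.66 ± 0.21 (adjusted p = 0.00671) and 1.05 ± 0.21 (3.28e-05). Ccl6 had medians of 3.01 (2.47 to 3.60), 2.43 (1.15 to 3.84) and 2.12 (1.05 to 2.81), with differences of 0.60 ± 0.21 (adjusted p = 0.0179) and 0.99 ± 0.21 (0.000126). Trem2 had a median of -0.01 in BALB/cJ (-0.84 to 0.77), -1.22 in C57BL/6J (-2.23 to 1.25) and -1.35 in DBA/2J (-1.91 to 0.09), higher in BALB/cJ by 1.06 ± 0.30 (adjusted p = 0.00258) and 1.00 ± 0.30 (0.00542). Its reads were 3 to 78 a soleus library (median 13). Csf1r had a median of 4.32 in BALB/cJ (3.90 to 4.92), 3.81 in C57BL/6J (2.08 to 5.20) and 3.55 in DBA/2J (2.22 to 4.19), higher by 0.56 ± 0.21 (adjusted p = 0.0247) and 0.84 ± 0.21 (0.000929). Adgre1 was not among the called genes, at 0.69 to 2.31 in BALB/cJ (median 1.29), -0.30 to 3.33 in C57BL/6J (median 1.40) and -0.55 to 1.51 in DBA/2J (median 0.92).

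Against both strains BALB/cJ was also higher in Cd14, Cd9, Mrc1 and Itgam, which encodes the integrin CD11b, by 0.28 to 0.87. Clec10a (0.55) and Cx3cr1 (0.67) passed against C57BL/6J alone, and Ctss (1.01), Tyrobp (0.72) and the Fc receptor genes Fcgr3 (0.71) and Fcer1g (0.46) against DBA/2J alone. In DBA/2J these last 4 members were below C57BL/6J: Fcer1g by 0.58 (log2 difference -0.58 ± 0.17, adjusted p = 0.00641), Ctss (-0.70 ± 0.25, 0.0227), Tyrobp (-0.62 ± 0.22, 0.0230) and Fcgr3 (-0.54 ± 0.22, 0.0486). For Fcer1g the levels were 0.03 to 2.67 in C57BL/6J (median 1.31) and 0.08 to 1.54 in DBA/2J (median 0.59). Clec4f ran the other way, lower in BALB/cJ by 1.64 and 2.09 (log2 differences -1.64 and -2.09, adjusted p = 0.0430 and 0.0108). It was at 0 reads in 37 of 72 soleus libraries and followed the summed hepatocyte markers with r = 0.89 (n = 72, the same libraries and depth), a link whose part in that result was not tested.

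Summed over the 9 general macrophage genes, RC soleus stood at 6.41 to 7.38 in BALB/cJ (median 6.72), at 4.99 to 7.82 in C57BL/6J (median 6.08) and at 5.02 to 6.62 in DBA/2J (median 5.78). Of 42 other macrophage genes BALB/cJ had 11 higher and 3 lower against C57BL/6J (background 21.2% and 23.3%). Against DBA/2J it had 19 higher and 1 lower (background 19.8% and 20.6%). Other cell types moved beside them: 3 of 6 fibroblast markers were higher in BALB/cJ than in each strain, 4 of 5 mast cell markers than in C57BL/6J and 5 of 9 adipocyte markers than in DBA/2J, and their part in the member differences was not tested. One C57BL/6J animal (1RC248) mattered for the count, which was 9 in place of 14 called without it, and DBA/2J against C57BL/6J fell from 4 to 2 without animal 1RC226 or 2RC208. Calls of Ctss and Tyrobp in that pair were lost in 3 and 4 of 72 such fits, with 1RC226 or 2RC203 among those left out in both cases. With genes of low mean level removed, 3 members were called in each BALB/cJ comparison and 0 in the other, since most members then went untested.

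**Figure D3:**
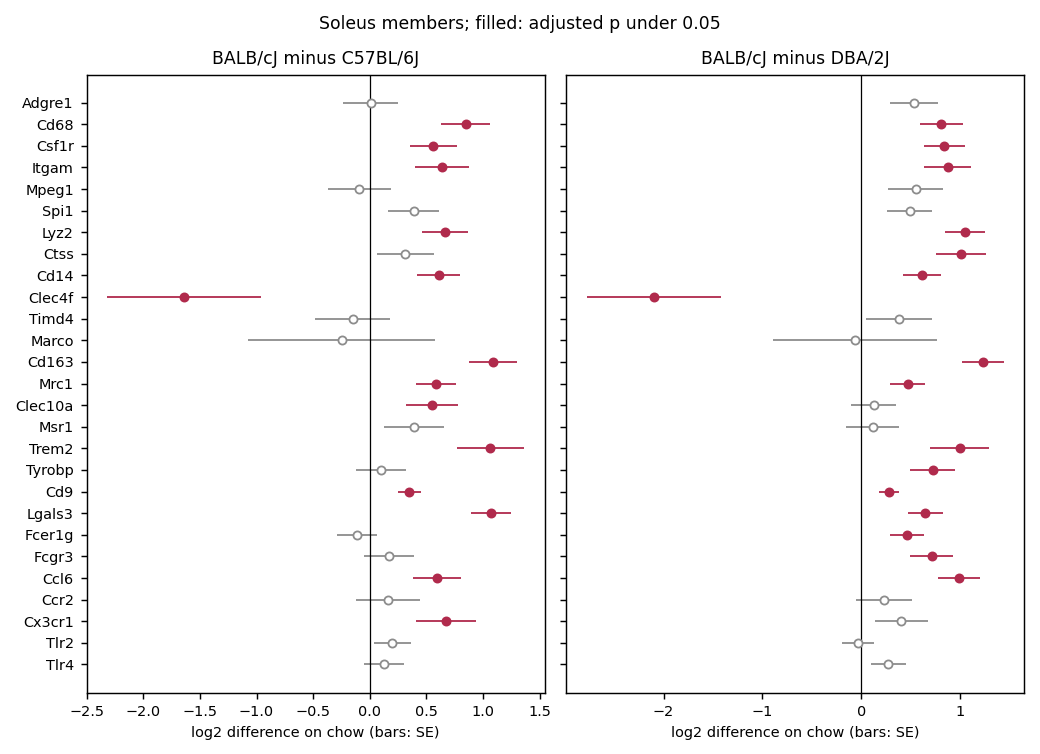
Log2 differences in RC soleus of BALB/cJ minus C57BL/6J and BALB/cJ minus DBA/2J for the 27 members, with bars for the SE and filled points for an adjusted p under 0.05. Filled points lie above 0 for 13 and 15 members, and Clec4f at -1.64 and -2.09 is the one below 0 in both panels.

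Sequences before the start of 4 of the members higher in BALB/cJ than in DBA/2J soleus are shown. All 4 hold the letters GAGGAA on either strand, so they do not show how common the letters are among these members. Itgam and Fcgr3, also higher there, hold them too. PU.1, the product of Spi1, is known to bind GAGGAA in myeloid promoters. Of the 36 members, 27 matched a promoter in the RefSeq table (build GRCm38.p6). The letters GAGGAA or TTCCTC, the same motif on the other strand, occurred in the 250 bases before the start of 13 of these 27 (48.1%) and of 6986 of 27025 genes (25.9%). A match is a description of letters and not of binding. The lines run 5′ to 3′ on the gene's strand, with capitals for the motif. Cd68 lies on the minus strand at chr11:69666171-69666420, Ctss on the plus strand at chr3:95526536-95526785, Trem2 on the plus strand at chr17:48346151-48346400, and Mrc1, with 3 matches, on the plus strand at chr2:14229164-14229413.
Cd68: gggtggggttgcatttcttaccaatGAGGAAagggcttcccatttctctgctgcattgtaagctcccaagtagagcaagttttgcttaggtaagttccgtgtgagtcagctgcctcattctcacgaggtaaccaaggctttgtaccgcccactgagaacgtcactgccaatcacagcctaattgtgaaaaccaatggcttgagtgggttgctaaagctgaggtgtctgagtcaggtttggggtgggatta
Ctss: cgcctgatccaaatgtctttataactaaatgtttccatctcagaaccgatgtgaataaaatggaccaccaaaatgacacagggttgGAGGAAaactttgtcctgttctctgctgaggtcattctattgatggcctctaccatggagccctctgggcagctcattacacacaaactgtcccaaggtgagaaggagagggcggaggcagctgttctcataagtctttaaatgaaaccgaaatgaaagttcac
Trem2: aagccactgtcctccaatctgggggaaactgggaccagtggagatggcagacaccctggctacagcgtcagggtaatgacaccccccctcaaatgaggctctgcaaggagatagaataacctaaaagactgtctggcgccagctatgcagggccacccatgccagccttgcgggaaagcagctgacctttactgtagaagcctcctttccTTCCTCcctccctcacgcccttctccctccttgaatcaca
Mrc1: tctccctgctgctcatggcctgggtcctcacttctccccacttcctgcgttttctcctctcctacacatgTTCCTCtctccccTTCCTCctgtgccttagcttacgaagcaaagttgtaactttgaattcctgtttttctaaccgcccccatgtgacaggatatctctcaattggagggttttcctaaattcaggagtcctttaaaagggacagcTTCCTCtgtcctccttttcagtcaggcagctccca
The same windows of Lyz2, Cd163, Lgals3, Ccl6, Cd9 and Fcer1g hold 0 matches, and these genes were higher in BALB/cJ than in DBA/2J soleus too. Csf1r, Cd14 and Tyrobp, the remaining members higher there, matched no promoter.

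Adipose libraries fell apart before any diet or strain comparison. The summed level of 10 B cell markers was at or below 5.97 in 30 libraries and at or above 9.21 in 40, with none between, and a line at 8 was placed in this gap after the data were seen. High libraries made up 10 of 12 in C57BL/6J on RC, 8 of 12 on HFD, 3 of 12 in DBA/2J on RC, 4 of 12 on HFD, 8 of 12 in BALB/cJ on RC and 7 of 10 on HFD. T cell markers (10 of 10), NK cell markers (7 of 7) and dendritic cell markers (6 of 8) were higher in the high libraries, and 9 of 9 adipocyte markers were lower. Among the members 17 were higher and 16 lower in high libraries (background 37.2% and 47.7%), which describes the split and is not a result of diet or strain.

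Marco, which splenic and lymph node macrophages also make, separated the classes completely, at -0.54 to 4.03 in low libraries (median 0.96, n = 30) and 4.34 to 9.68 in high ones (median 8.35, n = 40), a difference of 6.62 ± 0.24. So did the cytokine gene Tnf, at -3.81 to 0.59 (median -1.25) and 1.28 to 3.64 (median 2.76), and Timd4, a receptor for dying cells, at 0.94 to 3.67 (median 2.41) and 3.79 to 7.27 (median 5.62). Spi1 and Itgax, the gene of CD11c, were higher in the high class by 1.90 and 1.93. Of 8 resident members 4 were higher and 4 lower, of 6 lipid-associated members 2 were higher and 4 lower, and of 9 general macrophage members 6 were higher and 3 lower. Cd163 was at 5.45 to 7.60 in low libraries (median 6.57) and 3.32 to 6.25 in high ones (median 4.74), Trem2 at 2.12 to 4.49 (median 3.08) and -0.05 to 2.73 (median 1.77), and Adgre1 at 4.14 to 6.01 (median 4.94) and 3.19 to 5.55 (median 4.18). These 3 overlapped between classes. Csf1r and Cd68 were higher in the high class by 0.48 and 0.41 (limma, adjusted p = 2.25e-06 and 9.65e-05). Ccl2 and Tlr2 were not called between classes.

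**Figure D4:**
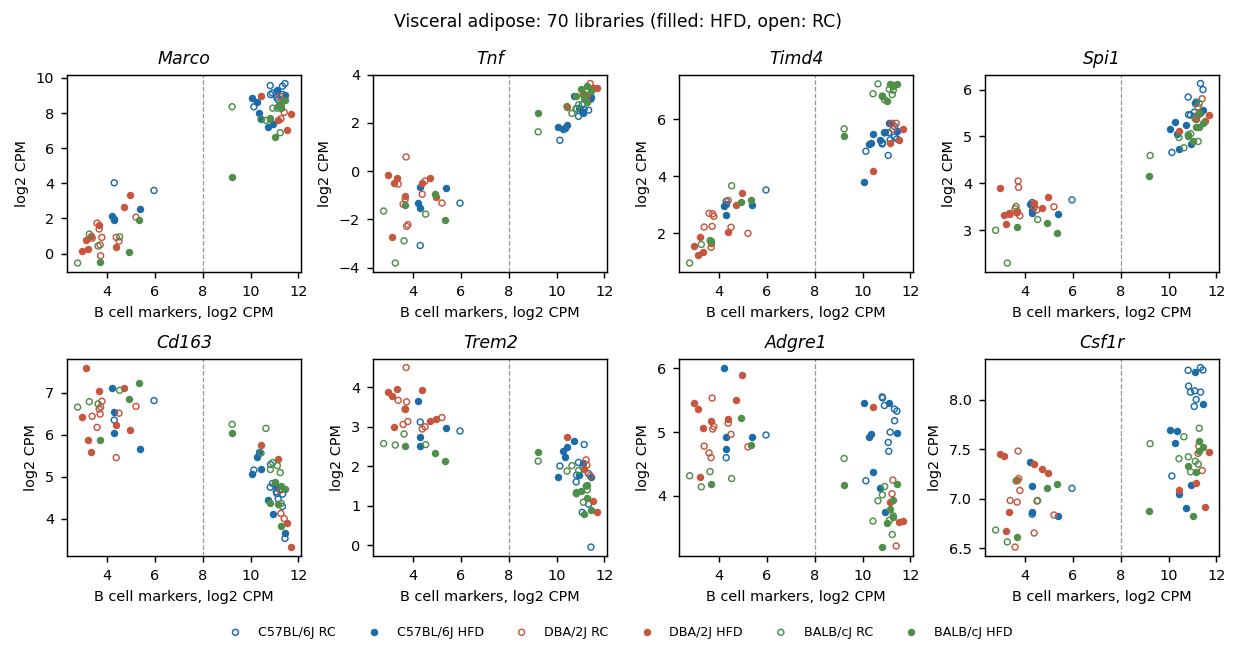
Level of 8 members against the summed level of 10 B cell markers, both in log2 CPM, in 70 visceral adipose libraries, coloured by strain with filled points for HFD and a dashed line at 8. Marco, Tnf, Timd4 and Spi1 step up to the right of the line, while Cd163 and Trem2 step down, with class medians of 6.57 and 4.74 for Cd163.

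The question of macrophage accumulation on HFD is most often asked of adipose tissue. Over all strains and days 0 of 35 members were called, with 4 at an unadjusted p under 0.05 and 0 with voom (background 3.59%), and the median difference was 0.02 against 0.01 for all genes. The smallest p belonged to Tlr2, at 2.21 to 4.07 on RC (median 3.49, n = 36) and 3.02 to 4.61 on HFD (median 3.65, n = 34), with wide overlap and a difference of 0.23 ± 0.08 (adjusted p = 0.0739). Ccl2 had medians of 2.25 (0.11 to 3.61) and 2.42 (1.17 to 3.73) and a difference of 0.38 ± 0.15 (adjusted p = 0.155). Ccr2 differed by 0.25 ± 0.10 (adjusted p = 0.155), Cd68 by -0.19 ± 0.09 (0.228), Csf1r by -0.16 ± 0.09 (0.365), Adgre1 by 0.02 ± 0.11 (0.973), Trem2 by 0.04 ± 0.16 (0.965), Itgax by -0.12 ± 0.24 (0.907), Tnf by 0.28 ± 0.48 (0.878) and Il1b by 0.36 ± 0.28 (0.603). The count was 1 without animal 1HF252, 2HF203, 2HF209, 2RC202 or 3RC251.

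With the B cell marker class as a covariate, 2 of 35 were called (background 15.4%): Ccr2 at 0.25 (adjusted p = 0.0277) and Tlr2 at 0.23 ± 0.07 (0.0251). In the 30 low libraries alone 1 was called (background 4.81%), Tlr2, at 2.21 to 3.70 on RC (median 3.40, n = 15) and 3.02 to 4.61 on HFD (median 3.70, n = 15), a rise of 0.50 ± 0.14 (adjusted p = 0.0416). Of 46 other macrophage genes 0 rose and 2 fell over all libraries (background 3.59%). Lyve1, a hyaluronan receptor gene of resident macrophages and lymphatic vessels, fell by 0.43 (log2 difference -0.43 ± 0.11, adjusted p = 0.0157), and Ctsd by 0.48 (-0.48 ± 0.14, 0.0396). Among 42 genes of inflammatory signalling no call was made over all libraries. With the covariate 3 of these 42 rose and 1 fell, and of the 46 other macrophage genes 3 rose and 6 fell (background 15.4%).

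Smaller adipose comparisons gave few calls. Within strains 0 of 35 were called, with 11 at an unadjusted p under 0.05 and 1 with voom (background 1.21%), while 2 were called without animal 1RC254 or 1RC256 and 1 without 2RC230, and by day 0, with 14 and 0 (background 2.87%), or 1 without 3RC211. The F tests called 0 between strains, with 8 and 0 (background 0.0967%), and 0 between days, with 8 and 0 (background 0%). Between day 33 and day 5 it was 0, with 8 and 0 (background 0.236%). In the 9 combinations 3 members were called (background 2.63%), all in BALB/cJ on day 33 and 0 with voom. Ccl2 was at 0.16, 0.11, 1.82 and 1.38 on RC and at 2.24, 2.95 and 3.01 in the 3 HFD libraries left after removing 1 islet library, with no overlap, and rose by 1.87 ± 0.48 (adjusted p = 0.0368). Ccl6 fell by 1.92 (log2 difference -1.92 ± 0.54, adjusted p = 0.0486) and Clec10a by 1.38 (-1.38 ± 0.38, 0.0452). All 3 HFD libraries and 2 of the 4 RC libraries were of the high class. With the class as covariate Ccl2 was at 1.94 (adjusted p = 0.0177), Ccl6 at -1.30 (0.0222) and Clec10a at -1.01 (0.0312). All 3 calls were lost without animal 3HF256, 3HF258, 3HF259, 3RC208 or 3RC209, and the count was 14 without 3RC211, 7 without 2HF203, 5 without 1RC256, and 1 without 1RC211, 1RC228, 3RC230, 3RC252, 3RC255 or 3RC259.

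DBA/2J had the most low libraries, and on days 13 and 33 these were 7 on RC and 7 on HFD. This comparison was chosen after the classes were seen. Here 6 of 35 members rose and 0 fell (background 3.58% higher and 3.83% lower), 29 differences were above 0, and the median was 0.31 against 0.02 for all genes. Members varied together within the low class (median r 0.24 with group means subtracted), so these signs are not independent. Fcgr1, the high-affinity IgG receptor gene, was at 0.41 to 1.69 on RC (median 1.58) and 1.97 to 2.51 on HFD (median 2.21), with no overlap, and rose by 0.92 ± 0.22 (adjusted p = 0.0273). Mpeg1 was at 5.48 to 6.19 on RC (median 5.59) and 6.18 to 6.58 on HFD (median 6.44), and rose by 0.71 ± 0.10 (adjusted p = 0.00198). Fcgr3 was at 4.55 to 5.08 (median 4.75) and 5.01 to 5.60 (median 5.38), a rise of 0.55 ± 0.11 (adjusted p = 0.0154). In each case 1 or more RC animals reached the lower end of the HFD range, except for Fcgr1.

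Tyrobp (0.41 ± 0.09, adjusted p = 0.0194), Ctss (0.53 ± 0.14, 0.0451) and Adgre1 (0.49 ± 0.13, 0.0468) rose as well. Tyrobp was the 1 lipid-associated member of 6 that passed. Trem2 differed by 0.38 ± 0.16 (adjusted p = 0.176), Itgax by 0.35 ± 0.21 (0.350), Cd9 by -0.05 ± 0.22 (0.926) and Lgals3 by -0.03 ± 0.19 (0.948). Cd68 (0.09 ± 0.10, 0.637), Csf1r (0.37 ± 0.12, 0.0828), Ccl2 (0.63 ± 0.29, 0.227), Tnf (0.49 ± 0.40, 0.513) and Il1b (0.97 ± 0.48, 0.252) did not pass either. The summed general macrophage level was 9.36 to 9.81 on RC (median 9.48) and 9.63 to 10.3 on HFD (median 9.88). Of the other lists, 6 of 46 further macrophage genes rose and 1 fell, and 4 of 42 of inflammatory signalling rose (background 3.58% higher and 3.83% lower). T cell markers stood higher beside them, with 2 of 10 called, 10 of 10 above 0 and summed levels of 2.84 to 3.76 on RC (median 3.31) and 3.42 to 5.12 on HFD (median 4.22). B cell markers had 0 of 10 called and a median of -0.29. The part of T cells in the member differences was not tested. With 1 library left out, 2 to 8 members were called higher, and Mpeg1 and Fcgr3 were among them in all 14 fits. Tyrobp was called in 12 of the 14 (not without 2HF253 or 2RC230), Fcgr1 in 8 (not without 2HF208, 2HF230, 2HF231, 2HF253, 2RC228 or 2RC229), Ctss in 3 (without 2HF209, 2HF210 or 2RC210) and Adgre1 in 2 (without 2HF209 or 2HF210).

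**Figure D5:**
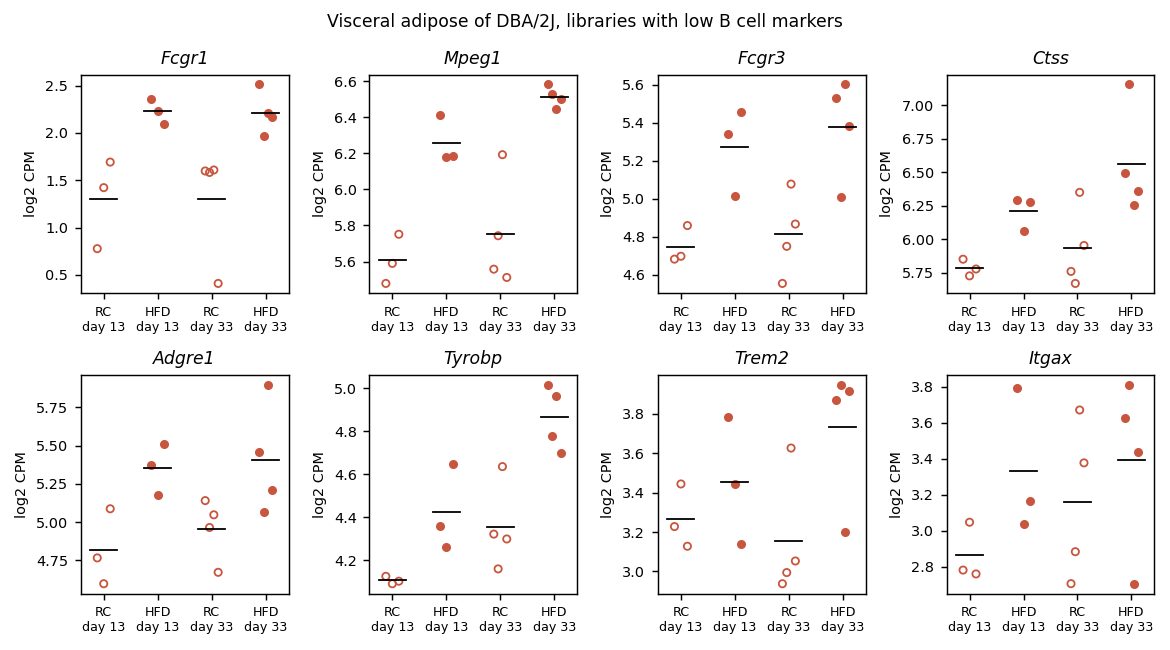
Visceral adipose log2 CPM of 8 members in DBA/2J libraries with low B cell markers, on days 13 and 33, open for RC and filled for HFD, with a line at the mean. HFD points of Fcgr1 (1.97 to 2.51) all lie above the RC points (0.41 to 1.69), whereas those of Trem2 and Itgax overlap.

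Strain comparisons of adipose tissue on RC carry the uneven classes with them. DBA/2J against C57BL/6J had 8 members higher and 15 lower (background 26.9% and 24.4%) while 10 of 10 B cell markers were lower. With the class as a covariate 2 were higher and 8 lower (background 10.3% and 9.69%), and 0 B cell markers were called. BALB/cJ against C57BL/6J had 1 higher and 10 lower (background 9.24% and 6.75%), and 5 and 16 with the covariate (13.9% and 12.5%). BALB/cJ against DBA/2J had 2 higher and 7 lower (background 11.1% and 13.7%), and 3 and 16 with it (12.4% and 12%). Within the low class alone the pairs, in the same order, gave 2 higher and 1 lower (background 6.72% and 6.07%), 2 and 4 (7.13% and 6.77%), and 3 and 11 (12.3% and 12.5%). With C57BL/6J represented there by 2 RC libraries, its comparisons rest on few animals.

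C57BL/6J had the highest Fc receptor signalling chain, Fcer1g, at 4.83 to 5.93 (median 5.40, n = 12) against 3.89 to 5.04 in DBA/2J (median 4.42) and 3.94 to 4.66 in BALB/cJ (median 4.41). BALB/cJ did not overlap with C57BL/6J. DBA/2J was lower by 0.97 (log2 difference -0.97 ± 0.12, adjusted p = 7.48e-09) and BALB/cJ by 1.02 (-1.02 ± 0.12, 2.49e-09), and by -0.74 and -0.95 with the covariate. Fcgr1 was at 1.72 to 2.57 in C57BL/6J (median 2.07) and 0.15 to 1.56 in BALB/cJ (median 0.90), without overlap, lower by 1.26 (-1.26 ± 0.17, adjusted p = 3.04e-08; -1.31 with the covariate). Cd5l was at 3.19 to 6.68 in C57BL/6J (median 5.63), -0.40 to 4.73 in DBA/2J (median 2.17) and -2.36 to 2.48 in BALB/cJ (median 1.87). The differences were -3.61 ± 0.61 (adjusted p = 5.03e-06) and -4.53 ± 0.61 (3.93e-08), and -2.70 and -4.27 with the covariate. Adgre1 was also lower in BALB/cJ than in C57BL/6J (-1.05 ± 0.19, adjusted p = 1.94e-05), and with the covariate (-1.14). In the low class alone these differences from C57BL/6J were not called for Fcgr1 (-0.60, adjusted p = 0.353), Cd5l (-3.66, 0.0546) or Adgre1 (-0.30, 0.592) in BALB/cJ.

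Mmp12, an elastase of macrophages, marked DBA/2J. It was at 2.07 to 7.08 there (median 4.34), at -0.32 to 2.82 in C57BL/6J (median 0.30) and at -0.08 to 4.68 in BALB/cJ (median 2.53). DBA/2J exceeded C57BL/6J by 3.66 ± 0.49 (adjusted p = 2.21e-08), by 2.92 with the covariate and by 2.68 in the low class. Trem2 (1.24 ± 0.28, adjusted p = 0.000374; 0.60 with the covariate) and Lgals3 (0.91 ± 0.22, 0.000922; 0.84 in the low class) were higher as well. Against DBA/2J, BALB/cJ was lower in Lgals3 (-1.38 ± 0.22, adjusted p = 2.08e-06), Ccl2 (-1.22 ± 0.26, 0.000299) and Ccr2 (-0.79 ± 0.17, 0.000423). The Lgals3 levels were 4.81 to 6.10 in BALB/cJ (median 5.38) and 5.42 to 7.51 in DBA/2J (median 7.04). Within the low class these 3 differences were -1.44, -1.96 and -0.90. Ccl2 was lower in BALB/cJ than in C57BL/6J too (-1.21 ± 0.26, adjusted p = 0.000308; -2.96 in the low class). Covariate and low class differences of Mmp12, Trem2, Lgals3, Ccl2 and Ccr2 are given as sizes alone, without calls. In the low class, differences from C57BL/6J rest on 2 RC libraries of that strain. Several members changed sign between the fits: Cd163, at 0.94 in DBA/2J against C57BL/6J, was at -0.02 with the covariate, and Timd4 went from -1.73 to 0.18. Pancreatic islet markers were higher in BALB/cJ than in C57BL/6J (5 of 7 called, median 4.78), and their part in the member differences was not tested. Without animal 1RC254 or 1RC256, the 2 low C57BL/6J libraries on RC, BALB/cJ against C57BL/6J gave 17 or 18 members in place of 11.

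How members varied together was described by Pearson's r across libraries of a tissue, which share depth and dissection. After group means were subtracted, the median r over 378 pairs in liver was 0.54 (n = 72), with 55.6% of pairs above 0.5, and in soleus it was 0.56 over 351 pairs (n = 72). In adipose tissue it was 0.07 over 595 pairs (n = 70), of which 288 were below 0. The pairs below 0 numbered 3 in liver and 17 in soleus. Within the low class the adipose median was 0.24 and within the high class 0.12. With group means kept in, the highest r of Adgre1 in liver was 0.88 with Fcer1g and the lowest was -0.27 with Cx3cr1.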

How the data were processed

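RNA from liver, soleus and visceral adipose tissue was sequenced as stranded mRNA libraries with 100-base single reads, per the labels' protocols. STAR 2.5.3a, edgeR and GRCm38 are named in the submitters' processing notes. The deposited tables hold log2 CPM values per gene, normalised by the authors separately for each tissue, and whole reads were recovered from these steps to give depth. Samples without a value column, 8 liver libraries, were not analysed here, and 2 adipose libraries with islet markers were left out. The deposited log2 values were fitted with limma 3.58.1 (R 4.3.3, trended prior) on 18 groups of strain, diet and day, with Benjamini-Hochberg adjustment over 12611 liver, 13637 soleus and 16540 adipose genes and a threshold of 0.05. Simple contrasts, F tests of interaction terms and chow strain pairs came from that fit. Counts of calls were given for all members and for role groups. Full values were given for members past the threshold over all strains and days, up to 3 of smallest p in the strain-by-diet test and in each strain pair, and always Adgre1, Cd68, Csf1r, Trem2, Itgax, Ccl2, Tnf, Il1b and, in liver, Clec4f. From each other gene list up to 4 genes of smallest p in the diet comparison were named. Further members were named for calls in smaller comparisons or after their values were seen. The members and lists were chosen with earlier results of these data known. Scripts were tested on simulated data. Same-numbered animals on HFD and RC were not paired, since the labels tie the numbers to no shared source and not every pair deviated together. The labels describe separate animals, so p-values measure the spread between animals of a group.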

Additional observations from a re-analysis of the deposited data

Results flagged for a closer look

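In groups of 4 animals, a sample was noted when its gap to the nearest other, divided by the range of the group, passed Dixon's 95% critical value for the summed level of the general macrophage members. This happened 8 times in 52 groups tested, and chance gives about 1 in 20. In adipose tissue 4 samples lay far below their group: C57BL/6J on HFD day 33 (1HF209) at 9.77 against a median of 10.9 for the others, C57BL/6J on RC day 13 (1RC254) at 9.81 against 11.2, C57BL/6J on RC day 33 (1RC256) at 9.51 against 11.4, and DBA/2J on HFD day 5 (2HF203) at 9.0 against 10.9. The DBA/2J adipose sample 2RC231 on RC day 13 lay above, at 11.2 against 9.46. Each of these 5 was the library of the other B cell marker class in its group, with summed B cell markers of 5.39, 5.97, 4.31 and 3.20 among high libraries, and of 11.4 for 2RC231 among low ones. The part of that class in these values was not tested. In liver C57BL/6J on HFD day 13 (1HF230) was at 6.44 against 7.53. In soleus BALB/cJ on RC day 13 (3RC255) was at 7.20 against 6.42 and C57BL/6J on RC day 5 (1RC226) at 7.82 against 5.89.

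The response to HFD in liver differed between strains by the limma F test for Mpeg1 (adjusted p = 2.43e-05), Cd9 (0.00160) and Ccl6 (0.0273).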

How the results depend on the processing

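Fits that left out each library in turn are not in the following totals, and their counts are given below as ranges. Among the other recomputed counts, 199 stayed within 1.5 times the value reported and 58 did not. Of 2812 recomputed values of single genes, 2659 kept their side of the threshold, and those called also kept their direction. Direction was not compared for values called in neither fit. In the same direction 76 lost the call and 54 gained one. The other 23 reversed, with a call in at least 1 of the fits. The edgeR and DESeq2 alternatives were not run. No adipose library exceeded 4 times the median of B cell markers, but 40 of the 70 libraries were in the high class. The median lay within that class, so this cut could not single out its libraries. The voom, marker class and low class alternatives were chosen after seeing the data. The share of all genes called in a refit is given only for some marker class and low class counts of adipose tissue. A moved count without that share is not a result about the members in particular. The cause of the changes below was not tested, except that a stricter filter tests fewer genes and leaving out classes leaves fewer samples.

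With a stricter filter, which keeps the genes in the upper part by mean level, liver called 1 member over all strains and days, 2 within strains, 2 in combinations of strain and day, and 2, 5 and 3 in the chow pairs DBA/2J against C57BL/6J, BALB/cJ against C57BL/6J and BALB/cJ against DBA/2J. Soleus called 1 within strains, 0 between day 33 and day 5, and 0, 3 and 3 in the pairs, and adipose tissue 14, 4 and 5 in the pairs. Quantile normalization gave 1 in liver over all, 5 in its strain-by-diet test, 2 between its days 33 and 5, 2 in soleus over all and 1 in adipose tissue within strains. Without the variance trend soleus combinations gave 0. With only the animals of a strain in the fit, liver gave 2 within strains. With the number range of the animals as covariate liver gave 2 by day, soleus 2 in combinations, 1 in the strain-by-diet test and 1 in DBA/2J against C57BL/6J, and adipose combinations 0. Without 1RC210 soleus gave 2 in combinations and 1 in the strain-by-diet test. With voom, liver gave 0 by day and 3 in combinations, soleus 2 in combinations, and adipose tissue 1 within strains and 0 in combinations.

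The replicate block on strain and animal number gave 2 in liver by day, 5 in the liver strain-by-diet test, 2 in soleus combinations and 0 in adipose combinations, and moved no other count by over 1.5 times. Same-numbered animals had a median r of 0.13 in liver, 0.0022 in soleus and -0.28 in adipose tissue. Other pairs of the 2 diets had -0.012, -0.016 and 0.12, so in liver same-numbered animals were the more alike. The numbers were not taken to pair animals, since the labels tie them to no shared source.

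In adipose tissue, keeping both islet libraries gave 7 in combinations and 1 within strains. With the B cell marker level as covariate the counts were 2 over all, 1 within strains, 3 by day, 3 between days 33 and 5, and 11, 18 and 17 in the chow pairs. With the marker class they were 2, 2, 3, 4, and 10, 21 and 19, with 8 in combinations. Over all strains and days, 3.59% of all adipose genes were called without a covariate and 15.4% with the class. The low class alone gave 1 over all and 3, 6 and 14 in the pairs. For DBA/2J against C57BL/6J the marker level reversed Spi1 (0.010), Cd163 (-0.12), Ccl6 (-0.11), Tnf (0.92), Il1b (0.086), Cx3cr1 (0.27), Timd4 (0.39) and Lyz2 (0.082), and the class reversed Cd163 (-0.019), Ccl6 (-0.022), Cx3cr1 (0.21) and Timd4 (0.18). For BALB/cJ against DBA/2J the level reversed Spi1 (-0.40), Cd163 (0.62), Itgax (-0.63) and Ctss (-0.48), and the class Spi1 (-0.48), Cd163 (0.67), Tnf (-0.77), Tyrobp (-0.36), Itgax (-0.73), Ctss (-0.58) and Mpeg1 (-0.45).

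Leaving out each library in turn gave these ranges. In liver they were 1 to 2 over all, 2 to 7 within strains, 0 to 2 by day, 3 to 11 in combinations, 3 to 10 and 0 to 0 in the strain and day interaction tests, 0 to 2 between days 33 and 5, and 7 to 10, 10 to 13 and 6 to 11 in the chow pairs. In soleus they were 0 to 2, 1 to 4, 0 to 1, 0 to 3, 0 to 1 and 0 to 0, 0 to 2, and 2 to 6, 9 to 14 and 13 to 19. In adipose tissue they were 0 to 1, 0 to 2, 0 to 1, 0 to 14, 0 to 0 and 0 to 0, 0 to 0, and 17 to 26, 9 to 18 and 6 to 11.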

Other observations

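Timd4 and Cd5l, genes of resident macrophages, were compared between strains within the high class of adipose libraries on RC. Timd4 was at 4.73 to 5.75 in C57BL/6J (median 5.30, n = 10), at 5.65, 5.86 and 5.87 in DBA/2J, and at 5.67 to 7.25 in BALB/cJ (median 6.89, n = 8). Cd5l was at 4.78 to 6.68 in C57BL/6J (median 5.90), at 0.43, 0.74 and 2.87 in DBA/2J, and at 1.29 to 2.48 in BALB/cJ (median 2.00). For Cd5l, C57BL/6J did not overlap with either strain, whereas for Timd4 it overlapped with both.

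Both BALB/cJ adipose samples with islet markers still held macrophage transcripts. Csf1r was at 4.46 and 4.56, Adgre1 at 2.73 and 3.06, Lyz2 at 7.01 and 5.66, and Marco at 4.04 and 2.23.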
